A study of Homo sapiens with 4 samples.

Results

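The 9 genes described here are the 3 members of the GADD45 family (GADD45A, GADD45B and GADD45G) and 6 genes known as targets of the tumour suppressor p53: MDM2, TP53INP1, TP53I3, BTG2, ZMAT3 and FDXR. They were chosen by gene symbol in the authors' annotation and make up 9 of the 24305 distinct symbols measured at gene level. The genes came with 10 transcript clusters (the array's units of a gene), because MDM2 had 2, and all 9 had a mean signal above the floor defined below. All samples were of the human breast carcinoma cell line MDA-MB-231, whose p53 is mutant. Cells spent 24 hours in standard DMEM with serum, followed by 3 days in either treated or control medium, each of them concentrated DMEM brought to strength with 9 parts of hypotonic saline. The saline of the treated medium had been held for 30 minutes in the dc DEP EMF of a BEFE unit, and the saline of the control medium had not. Each medium was represented by 1 column of gene-level signal and 1 column of exon-level signal, so the values below have no replicates, no error and no test.

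GADD45 proteins are small acidic stress sensors that bind the kinase MAP3K4 upstream of p38 and JNK, the clamp protein PCNA, the cell cycle inhibitor p21 and the mitotic kinase CDK1. They are known for restraining the G2 to M transition and for roles in DNA repair and demethylation. GADD45A is induced by p53 after DNA damage, and also by p53-independent routes that include amino acid and endoplasmic reticulum stress. MDM2, the ubiquitin ligase that degrades p53, is itself a p53 target and closes a feedback loop, so its RNA is a common readout of p53 activity. A mutant p53 often cannot activate such targets.

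MDM2 has an upstream promoter and a second one in its first intron, and the second is the one through which p53 is known to act. From the RefSeq promoter table (GRCh38.p14), 12 windows for 7 of the 9 genes were searched. Each window of 300 bases ran from 250 bases before a transcript start to 50 after it. None was of GADD45A or TP53INP1, and windows on the chromosome of TP53INP1 were left out of this search. Each window was searched for the p53 response element by its published consensus, 2 half-sites of 10 bases with no spacer, allowing 3 mismatches in 20 bases. Such a match occurred in 5.20% of all 35116 windows. It was found in both overlapping windows of the second MDM2 promoter and in 1 of 2 windows of FDXR, and in no window of GADD45B, GADD45G, ZMAT3, BTG2 or TP53I3. Stretches outside these windows, and elements unlike this consensus, were not searched, so a gene without a match may still have a p53 element. The sequences below show MDM2 and FDXR because windows of these 2 genes held such inexact matches. Their RNA differed by at most 1.20-fold between the media. No gene with a searched window reached 2-fold, and no window of GADD45A or TP53INP1 was searched. The matches therefore cannot be set against the differences. Capitals mark the matches, and all runs read 5′ to 3′.
MDM2 first promoter, chr12:68807922-68808221, plus strand: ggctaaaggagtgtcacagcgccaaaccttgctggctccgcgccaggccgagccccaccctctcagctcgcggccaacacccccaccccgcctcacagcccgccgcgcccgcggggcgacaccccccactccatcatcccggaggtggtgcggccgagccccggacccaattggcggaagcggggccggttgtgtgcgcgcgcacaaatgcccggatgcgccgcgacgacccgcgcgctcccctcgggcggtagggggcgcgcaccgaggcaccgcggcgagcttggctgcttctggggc
MDM2 second promoter, chr12:68808767-68809066, plus strand: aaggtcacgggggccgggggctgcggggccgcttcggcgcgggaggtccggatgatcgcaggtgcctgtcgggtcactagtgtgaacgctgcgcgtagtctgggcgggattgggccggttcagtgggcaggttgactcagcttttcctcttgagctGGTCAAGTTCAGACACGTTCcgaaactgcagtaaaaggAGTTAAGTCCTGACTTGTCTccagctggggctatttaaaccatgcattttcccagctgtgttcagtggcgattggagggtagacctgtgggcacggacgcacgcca
FDXR promoter, chr17:74872945-74873244, minus strand: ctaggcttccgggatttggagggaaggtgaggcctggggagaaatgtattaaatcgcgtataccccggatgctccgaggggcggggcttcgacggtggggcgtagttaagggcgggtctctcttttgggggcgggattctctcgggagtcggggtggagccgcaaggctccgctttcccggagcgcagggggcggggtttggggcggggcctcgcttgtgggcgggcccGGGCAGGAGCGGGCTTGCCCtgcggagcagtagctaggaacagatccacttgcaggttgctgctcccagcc
The second MDM2 window held 2 matches, starting at positions 157 (2 mismatches) and 195 (3 mismatches) of the window, and the FDXR window held 1, at position 230 (3 mismatches). The 8-letter ATF4 and C/EBP composite core TGATGCAA, searched on both strands, was in none of the 12 windows and in 0.866% of all windows. The CCAAT box, also searched on both strands, was in 9 of the 12 windows, 4 of them windows of MDM2 that overlap in pairs, and in 34.6% of all windows. These matches describe letters only and show no binding.

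Gene-level signal is given as log2, and each difference is log2 treated minus log2 control. Genes were called measured if the average of their signal in treated and control medium was 7.17 or more, a floor set at the median of the probe sets that have a single symbol, and 12353 genes met it. In treated medium GADD45A and TP53INP1 passed 2-fold higher, GADD45B, ZMAT3 and GADD45G were higher by less than 1.5-fold, and BTG2, MDM2, TP53I3 and FDXR were within 1.2-fold of control. So 2 of the 9 genes (22.2%) were at least 2-fold higher, where 3.22% of all measured genes were, and 0 of 9 were at least 2-fold lower, where 3.46% were. TP53INP1 and GADD45G met the floor through their treated signals alone. With signals under the floor raised to it, 1 of the 9 genes, GADD45A, was at least 2-fold higher, against 3.03% of all genes, and 0 were lower, against 3.31%. With a threshold of 1.5-fold the count was again 2 of 9, against 9.46% of all genes. Of all measured genes, 6.69% passed 2-fold in either direction. The median difference of the 9 genes was 0.40, against -0.01 over all measured genes, whose quartiles were -0.26 and 0.25. That median is the value of GADD45G, whose difference was 0.35 with its control signal raised to the floor. Above the upper quartile lay 5 of the 9 genes, among them TP53INP1 and GADD45G, and the other 4 lay between the quartiles.

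**Figure D1:**
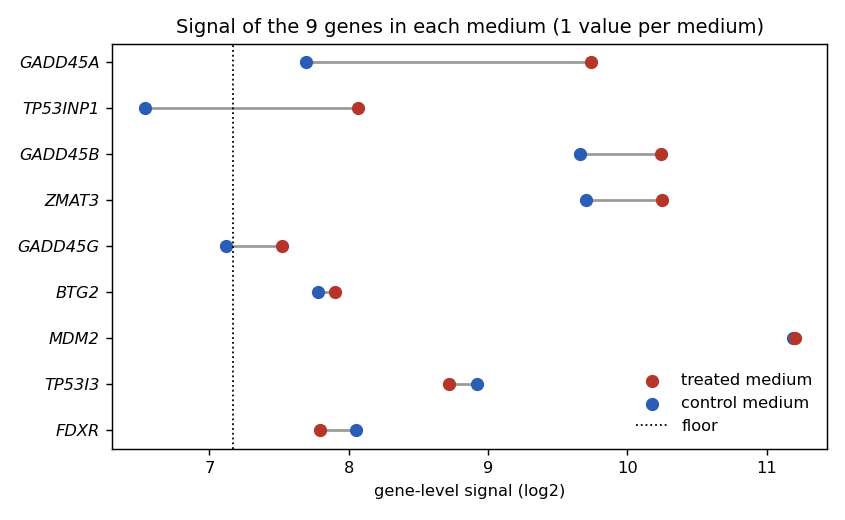
Gene-level log2 signal of the 9 genes in treated (red) and control (blue) medium, ordered by difference, with the floor of 7.17 as a dotted line. GADD45A and TP53INP1 have the widest gaps, and the 2 points of MDM2 nearly coincide.

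GADD45A, the family member known for induction by genotoxic and nutrient stress, had a log2 signal of 9.74 in treated medium and 7.69 in control medium (transcript cluster 16665932). The difference was 2.05, a 4.14-fold higher signal, and both values were above the floor. Only 53 of the 12353 measured genes had a higher difference. GADD45B, known as a target of NF-kB and TGF-beta signalling that limits JNK activity, had 10.24 in treated medium and 9.66 in control medium, a difference of 0.58 or 1.49-fold. Higher differences were found for 1185 measured genes, or 9.59% of them. GADD45G, known as a cytokine-induced member often silenced in tumours, had 7.52 in treated medium and 7.12 in control medium, a difference of 0.40 or 1.32-fold. Its control signal was just under the floor, and against the floor it was 1.27-fold higher. All 3 family members were thus higher in treated medium but by unequal amounts: the difference of GADD45A exceeded that of GADD45B by 1.47 and that of GADD45G by 1.65 on the log2 scale, while GADD45B and GADD45G were 0.18 apart.

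TP53INP1, a p53-induced nuclear protein that promotes cell death and autophagy, had a log2 signal of 8.06 in treated medium and 6.54 in control medium (transcript cluster 17079317). The difference was 1.53 or 2.89-fold, and 126 measured genes (1.02%) had a higher one. Its control signal lay under the floor, so the size of the fold is uncertain: set against the floor, the treated signal was 1.86-fold higher, less than 2-fold. ZMAT3, an RNA-binding zinc finger protein that regulates splicing and transcript stability downstream of p53, had 10.25 in treated medium and 9.70 in control medium. Its difference of 0.55, or 1.46-fold, was close to that of GADD45B.

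The remaining p53 targets differed little. BTG2, an antiproliferative protein that recruits the CCR4-NOT deadenylase, had 7.90 in treated medium and 7.78 in control medium, a difference of 0.13. MDM2 had 11.20 in treated medium and 11.19 in control medium, a difference of 0.02, and 47.5% of measured genes had a higher difference. Its second transcript cluster (16767332) was under the floor, with 6.38 in treated medium and 6.28 in control medium. TP53I3, a quinone oxidoreductase linked to p53-induced oxidative stress, had 8.72 in treated medium and 8.92 in control medium. FDXR, the mitochondrial ferredoxin reductase that supplies electrons for steroid and iron-sulfur cluster synthesis, had 7.79 in treated medium and 8.05 in control medium. TP53I3 (-0.20) and FDXR (-0.26) were the 2 genes with a negative difference, 1.15-fold and 1.20-fold lower. In the authors' deposited table, which gives control over treated ratios, GADD45A stood at 0.242, TP53INP1 at 0.347, MDM2 at 0.989 and FDXR at 1.20.

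**Figure D2:**
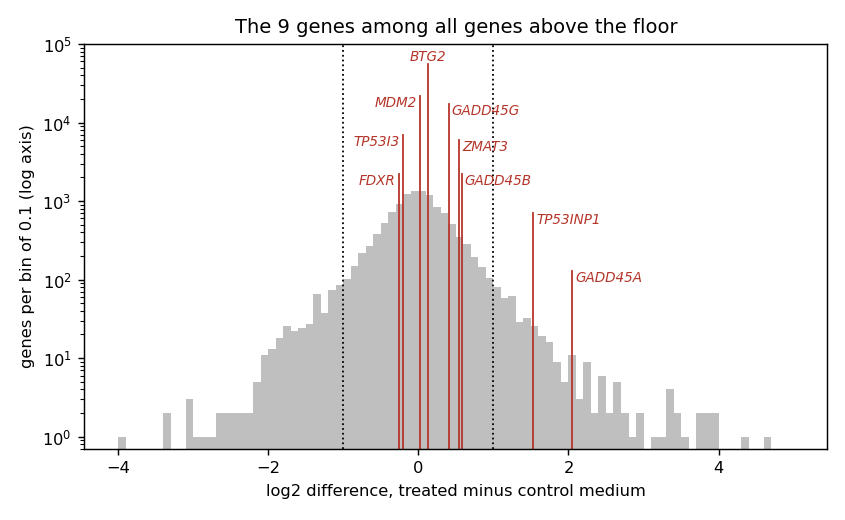
Log2 differences (treated minus control) of the 12353 genes above the floor in bins of 0.1, with gene counts on a log axis. Red lines mark the 9 genes, the height of a line has no meaning, and dotted lines mark 2-fold; GADD45A and TP53INP1 lie beyond the upper line and the other 7 genes within both lines.

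Exon-level probe sets, each measuring a stretch of a gene, showed whether a gene-level difference was shared along the transcript. No table used here pairs them with genes, so each was assigned to the transcript cluster with the nearest lower identifier. Over 26802 clusters with at least 3 such probe sets, their median difference correlated with the gene-level difference at a Pearson r of 0.964, against 0.057 for the block of the next cluster. These r values describe probe sets that share a hybridisation and are no test. Among all exon-level probe sets above the exon-level floor of 7.34, 4.59% passed 2-fold higher in treated medium.

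GADD45A had 8 exon-level probe sets, and all 8 were higher in treated medium. They fell into 2 kinds. In 5 of them the difference was between 2.00 and 2.60: the log2 signals were 11.45, 10.21, 10.04, 10.93 and 9.96 in treated medium, against 9.45, 7.61, 7.55, 8.58 and 7.68 in control medium. In the other 3 it was between 0.25 and 0.42, with 7.85, 7.06 and 7.41 in treated medium and 7.43, 6.75 and 7.16 in control medium, close to the exon-level floor in both media. Above that floor were 6 of the 8 probe sets, and 5 of these passed 2-fold, beside the 4.59% of all probe sets. The SD over the 8 differences was 1.06, above the median within-gene SD of 0.43 over 11341 measured genes. The gene-level value of 2.05 lies within the range of the 5 larger differences, near its lower end.

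TP53INP1 behaved more evenly. All 7 of its probe sets were higher in treated medium, by 0.78 to 1.68, and 6 of the 7 were at least 2-fold higher. Their signals ran from 6.99 to 9.19 in treated medium and from 6.21 to 7.60 in control medium. Only 3 of the 7 had a mean above the exon-level floor, and all 3 of these were at least 2-fold higher. The median difference was 1.31, and the SD was 0.33.

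**Figure D3:**
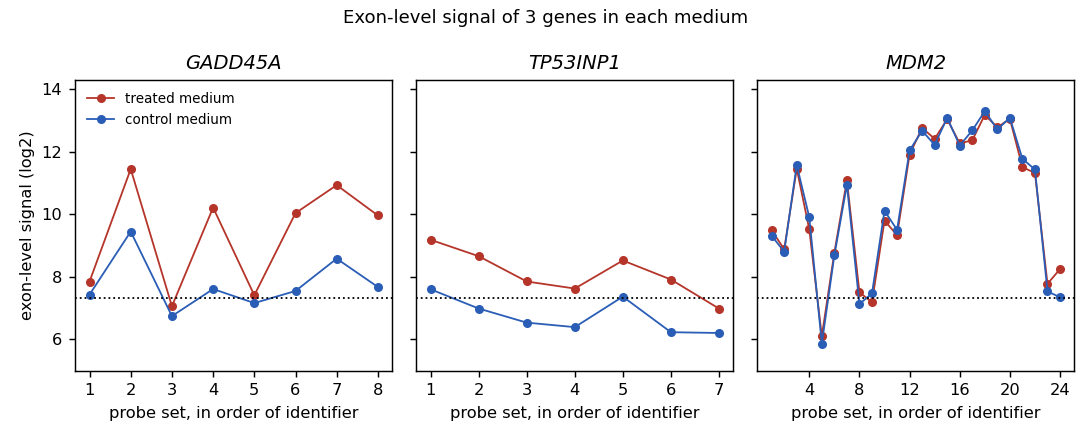
Exon-level log2 signal of each probe set of GADD45A, TP53INP1 and MDM2 in treated (red) and control (blue) medium, in order of identifier, with the exon-level floor of 7.34 as a dotted line. In GADD45A the media separate at 5 of 8 probe sets, in TP53INP1 they separate at all 7, and in MDM2 the 2 lines follow each other over 24 probe sets.

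The smaller differences of GADD45B and ZMAT3 were also shared by their probe sets. All 5 probe sets of GADD45B were higher in treated medium, between 0.46 and 0.74, with an SD of 0.10. Their signals ran from 9.35 to 11.47 in treated medium and from 8.79 to 10.87 in control medium, all above the exon-level floor. All 10 probe sets of ZMAT3 were higher, between 0.20 and 1.02, and 1 of them passed 2-fold. For both genes the direction was the same along the transcript although neither passed 2-fold at gene level. These probe sets come from the same hybridisation as the gene-level value, so they are no replicates and no test of it.

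GADD45G was less even. Of its 8 probe sets 6 were higher in treated medium, 1 was lower by 0.03 and 1 was equal in both media at 9.74. The highest difference, 1.93, came from a probe set with signals of 6.37 in treated medium and 4.44 in control medium, both under the exon-level floor. The median was 0.29, and no probe set above that floor was 2-fold higher.

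MDM2 had 24 probe sets, with 12 higher and 12 lower in treated medium. Their differences ran from -0.39 to 0.90 with a median of 0.02, and 0 of 24 passed 2-fold in either direction. Over all probe sets above the exon-level floor 4.59% passed 2-fold higher, and the share lower was not computed. Beside that share, a count of 0 in 24 does not set MDM2 apart. The probe sets of MDM2 carry no coordinates here, so none could be assigned to the first or the second promoter shown above. BTG2 also lay on both sides of 0, with 3 of 6 probe sets higher and 3 lower, between -0.50 and 0.59. Unlike in MDM2, the signs were not mixed: in order of identifier the first 3 were higher and the last 3 lower. The probe sets at both ends of that range, -0.50 and 0.59, had means under the exon-level floor. FDXR had 12 of 18 probe sets lower, with a median of -0.24. In FDXR 0 of 18 passed 2-fold, a count that does not set it apart either. TP53I3 had 9 of 13 lower, with a median of -0.30. The 3 probe sets of TP53I3 that were at least 2-fold lower all had means under the exon-level floor, and the furthest had signals of 3.06 in treated medium and 5.44 in control medium.

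**Figure D4:**
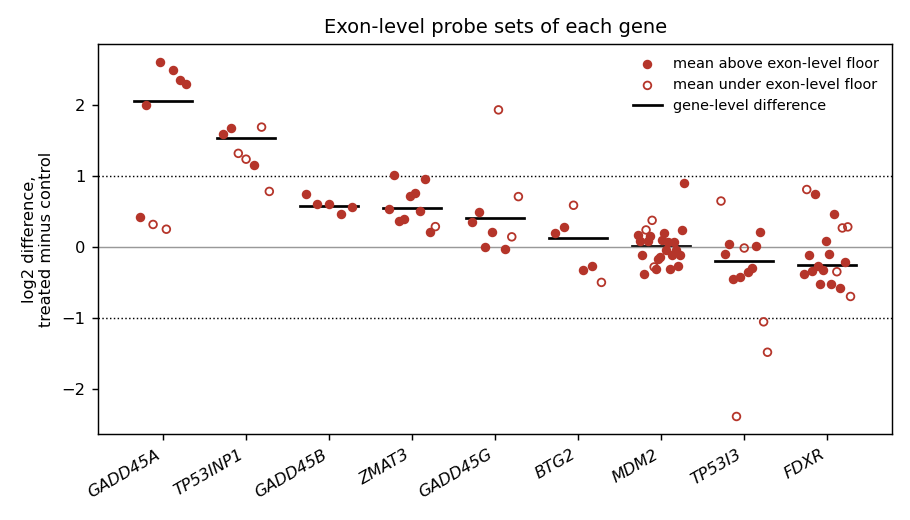
Log2 difference (treated minus control) of every exon-level probe set of the 9 genes, filled where the mean of both media is above the exon-level floor and open where it is under it; black bars give the gene-level difference and dotted lines mark 2-fold. The 7 probe sets of TP53INP1, the 5 of GADD45B and the 10 of ZMAT3 all lie above 0, and those of MDM2 and BTG2 lie on both sides.

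Of 24 listed regulators and relatives of p53, 21 were above the floor, with a median of 0.14, and 0 were at least 2-fold higher. The 2 at least 2-fold lower were CHEK1, the kinase of the replication checkpoint, at -1.23, and TP73, the p53 relative, at -1.21. These 2 of 21 (9.52%) stood beside 3.46% lower among all measured genes, and the 0 higher beside 3.22%. TP73 had 6.88 in treated medium, under the floor, and 8.09 in control medium. Against the floor it was 1.89-fold lower, which leaves 1 of 21 past 2-fold lower, beside 3.31% of all measured genes. Neither that count of 1 nor the count of 0 sets the list apart. MDM4, the partner of MDM2 in restraining p53, was furthest above 0, with 9.97 in treated medium and 9.03 in control medium, a difference of 0.93.

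Of 44 other textbook p53 targets 35 were above the floor, with a median of -0.04. A positive difference was found in 17 of them (48.6%), close to the 49.2% of all measured genes. CDKN1A, the gene of the cell cycle inhibitor p21, had 8.04 in treated medium and 7.86 in control medium, a difference of 0.18. At least 2-fold higher were 4 genes (11.4%): SESN2, an mTORC1 inhibitor, at 3.90, the IGF-binding protein gene IGFBP3 at 1.43, the autophagy gene DRAM1 at 1.33 and the adhesion gene NINJ1 at 1.03. The exon-level median of NINJ1 was 0.70, under 2-fold. At least 2-fold lower were another 4 (11.4%): the apoptosome gene APAF1 at -1.19, THBS1, the gene of the matrix protein thrombospondin, at -1.15, the cyclin G1 gene CCNG1 at -1.14 and the polo-like kinase gene PLK2 at -1.07. These shares stood beside 3.22% higher and 3.46% lower among all measured genes.

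Another list of 5 genes held those named like GADD45A for growth arrest or DNA damage, and PPP1R15B, whose symbol pairs it with PPP1R15A. Their products are unrelated to GADD45A in sequence. The list was chosen with earlier results of these data known. Of the 5 genes 4 were above the floor, and 3 of these 4 were at least 2-fold higher. PPP1R15A, the phosphatase subunit also called GADD34 that reverses eIF2 phosphorylation, had 11.37 in treated medium and 9.28 in control medium, a difference of 2.09, next to the 2.05 of GADD45A. DDIT3, also called GADD153 or CHOP, a transcription factor of the stress response, had 9.24 in treated medium and 6.53 in control medium, a difference of 2.71, with the control signal under the floor. DDIT4, an mTORC1 inhibitor, had a difference of 3.32. PPP1R15B was above the floor but within 2-fold, at 0.77, and DDIT4L, at -0.13, was under the floor. The median of the 4 above the floor was 2.40, and the share past 2-fold higher over all measured genes was 3.22%. DDIT3 also belongs to a list of 17 measured transcription factor genes whose products are known to act on GADD45 genes. That list had a median of 0.36. Besides DDIT3, 2 of the 17 were at least 2-fold higher: CEBPB at 1.74 and ATF3 at 1.18. ATF3 had a control signal under the floor, and with the floor in its place the gene did not pass 2-fold (1.65-fold). The count of 3 in 17 (17.6%) stood beside 3.22% of all measured genes, and the count of 2 against the floor beside 3.03%. ATF4 was at 0.72, and BRCA1 was furthest below 0, at -0.77.

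Genes of proteins that GADD45 binds, with the stress kinases downstream, had a median of -0.20 over 18 measured genes. None was at least 2-fold higher, and the 4 at least 2-fold lower (22.2%) were proliferation genes: PCNA at -2.05, the G2 cyclin gene CCNB1 at -1.74, the mitotic kinase gene AURKA at -1.64 and CDK1 at -1.51. Over all measured genes 3.22% were higher and 3.46% lower by that threshold. MAP3K4, the kinase that GADD45 proteins activate, had 8.67 in treated medium and 8.93 in control medium. MAP2K3, an activator of p38, was furthest above 0, at 0.29. Of 15 measured relatives and partners of BTG2, TP53INP1, ZMAT3, TP53I3 and FDXR, 0 passed 2-fold in either direction, where 6.69% of all measured genes did, so a count of 0 does not set them apart. BTG1 (0.79) and BTG3 (-0.72), both relatives of BTG2, stood at the ends of that list, and TP53INP2, the paralog of TP53INP1, was at 0.47.

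**Figure D5:**
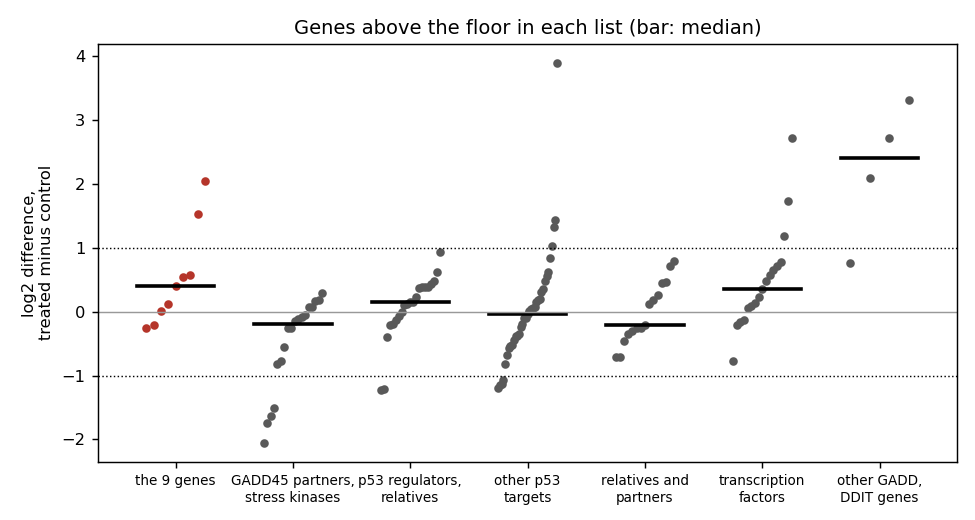
Log2 differences (treated minus control) of the 9 genes (red) and of the measured genes of 6 lists (grey). The median of each is a bar and dotted lines are at 2-fold. GADD, DDIT stands for the other genes named for growth arrest and DNA damage, with PPP1R15B. The 35 other p53 targets spread on both sides of 0, and the partner list reaches down to -2.05.

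The median gene-level signal over all 53617 probe sets was 6.31 in treated and 6.33 in control medium. Markers fixed for the line were above the floor in 6 of 6 cases, with signals from 7.82 to 11.98 in treated medium and from 7.96 to 11.75 in control medium. Of all 24305 symbols, 12353 met the floor. The receptor genes ESR1 and PGR, which the line lacks, were under it, and ERBB2, which the line does not amplify, was above it. Of 4 leukocyte and 2 endothelial markers 0 were above the floor, and of 3 fibroblast markers 1 was, COL1A1. RNA came from whole cultures, so more cells expressing a gene and more RNA per cell cannot be told apart.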

How the data were processed

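The authors deposited gene-level and exon-level log2 signal, 1 column per medium and level, and per the submitters' processing notes the tools were RMA and Affymetrix Expression Console. No version or genome build is given in the sources used here. Since RMA forces the columns to 1 distribution, a shift shared by most genes cannot be seen. RNA integrity was checked on 5 replicates per group, per the labels, which do not say what 1 column combines. All 5391 probe sets found at both levels had identical values, so the levels are 2 summaries of the same hybridisation, never replicates. Gene symbols and control over treated ratios came from the authors' deposited table, whose ratios matched the log2 values within 4.96e-05. Its 2 columns of linear signal were not used.

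With python 3.11.15 and pandas 2.3.3, symbols with several clusters took the cluster with the highest mean. A 2-fold difference was the threshold, and the floors were medians. No test was possible. The counting and the motif search were tested on simulated data. The genes, lists and naming rule were chosen with earlier results of these data known. Named are the 9 genes, CDKN1A and per list the genes past 2-fold or furthest from 0, while ATF4, MAP3K4 and TP53INP2 were added after their values were seen. PPP1R15B and DDIT4L are named outside that rule and complete their list. Listed genes under the floor or unmatched were not counted, and 2 further genes of the lists are not reported here. The alternatives were quantile normalization, median centring, other floors, a 1.5-fold threshold, the second MDM2 cluster and exon-level medians.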

Additional observations from a re-analysis of the deposited data

How the results depend on the processing

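Across 75 recomputed values, 66 stayed the same. Some of these could not change, so the tally does not measure robustness. Raising signals to the floor leaves a gene with both signals above it as it was. All 9 genes met the floor, so leaving it out could not alter their counts. Median centring moved every difference by only -0.005. For a single gene this meant the same direction and side of 2-fold, and for the median of a list the same direction and a move of at most 0.1. The rest of the 66 were counts of genes past the threshold among the 9, all equal to the main count. Under quantile normalization and median centring all 9 genes kept direction and side of 2-fold, with moves of at most 0.035 on the log2 scale. TP53INP1 dropped under 2-fold, to 0.89, when signals were raised to the floor, so that 1 of the 9 genes was at least 2-fold higher, a count added after seeing the data. With the exon-level median, an alternative chosen after seeing the data, BTG2 changed sign to -0.039. With a floor at the 75th percentile 3 of the 9 genes were left and 0 of them were at least 2-fold higher, because GADD45A and TP53INP1 were then not counted. The same floor moved the median of the partner list to -0.78, turned that of relatives to 0.12, and moved that of the other growth arrest genes to 2.09, against 2.40. With no floor, the median of relatives was -0.067 and that of the other growth arrest genes 2.09. The planned exon-level summary from a table that pairs probe sets with genes was not run, and assignment by identifier took its place. No paired analysis was possible because each group has 1 column and no test was made. Precision is limited by having 1 column per medium, and signals near the floor limit TP53INP1 and GADD45G most.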
